A study of Caenorhabditis elegans with 2 samples.

Results

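The regions described here were the autosomal binding peaks of ZIP-4 whose summits lay outside the promoters of protein-coding genes. Of the 1290 peaks in the authors' optimal set, 292 qualified, 757 lay on autosomes inside promoters and 241 lay on the X chromosome. A peak qualified when its summit fell in no window from 1000 bp upstream to 200 bp downstream of the start of a protein-coding transcript. The set was therefore selected on measured values, namely the deposited signal value that put a region in the optimal set and the place of its summit, so signal, position and repetition between replicates are given as description without a test. The data came from chromatin immunoprecipitation and sequencing (ChIP-seq) with an antibody to GFP in whole Caenorhabditis elegans first-stage (L1) larvae of mixed sex, 6 hours of age, that were starved after bleaching. The worms were of strain OP590. They carried the unc-119 allele tm4063 and the transgene wgIs590, in which ZIP-4 is joined to TY1, EGFP and 3xFLAG tags and which also brings a working copy of unc-119. The protein followed was therefore the transgene's fusion and not ZIP-4 from the native locus. There was 1 group with 2 biological replicates, 1 control alignment served both, and no worms without the tag or in another state were analysed here. Signal from all tissues of the larva was merged, and a site bound in few cells cannot be told apart from one bound weakly in many.

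ZIP-4 belongs to the basic leucine zipper (bZIP) family of transcription factors, which bind DNA as dimers, each partner reading a short half-site. C/EBP-type bZIP factors read the palindrome TTGCGCAA and relatives of the form TTRCNNAA, where R is A or G and N any base. In the compact worm genome most regulatory sequence lies close to gene starts, but enhancers also occur in introns and between genes. Introns and intergenic stretches hold many genes for small non-coding RNAs too: transfer RNAs (tRNAs), which carry amino acids, spliceosomal and spliced-leader RNAs (annotated together as snRNAs), and small nucleolar RNAs (snoRNAs), which guide modification of other RNAs.

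The windows of 101 bp centred on 9 of the 20 strongest of these summits are given here. Each holds a C/EBP-type word or lies beside an snRNA gene, and they do not stand for the rest. Of the 20 summits, 7 held TTRCNNAA and 3 lay beside a tRNA, snRNA or snoRNA gene. The 9 windows were read on the plus strand from the RefSeq genome, assembly WBcel235 (the same assembly as ce11). In the 5 windows of the first group, capitals mark TTGCGAAA on either strand, which on the plus strand reads TTTCGCAA; the strongest window, past the end of atfs-1, holds 2 copies. The same 2 flanking bases, A before and T after the word TTGCGAAA, recur in all 5.
V:14200168-14200268: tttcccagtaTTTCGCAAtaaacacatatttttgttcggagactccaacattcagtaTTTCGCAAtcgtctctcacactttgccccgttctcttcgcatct
V:19529236-19529336: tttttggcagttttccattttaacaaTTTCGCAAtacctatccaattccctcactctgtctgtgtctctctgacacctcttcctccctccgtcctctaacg
V:18901641-18901741: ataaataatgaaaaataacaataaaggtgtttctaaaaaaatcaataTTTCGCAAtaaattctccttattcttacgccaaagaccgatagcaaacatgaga
II:1501777-1501877: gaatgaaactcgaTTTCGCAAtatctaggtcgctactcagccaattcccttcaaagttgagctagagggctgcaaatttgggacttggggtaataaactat
III:10202532-10202632: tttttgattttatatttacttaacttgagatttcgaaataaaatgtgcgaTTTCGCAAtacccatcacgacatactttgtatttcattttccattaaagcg
The next window, beside linc-128, is 1 of 2 with the palindrome itself, in capitals.
V:1151428-1151528: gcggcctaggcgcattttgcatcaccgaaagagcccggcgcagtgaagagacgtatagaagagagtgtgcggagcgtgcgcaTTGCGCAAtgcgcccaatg
The last 3 windows lie upstream of snRNA genes. In the windows beside W05B2.8 and sup-6 capitals mark GCGGAACC on either strand, a word noted after the windows had been read, and in the window beside sls-2.2, a gene for the spliced leader SL2, they mark the first 14 bases of the gene.
III:10989523-10989623: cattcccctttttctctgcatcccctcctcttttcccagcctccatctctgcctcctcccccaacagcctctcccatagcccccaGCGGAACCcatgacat
II:12944947-12945047: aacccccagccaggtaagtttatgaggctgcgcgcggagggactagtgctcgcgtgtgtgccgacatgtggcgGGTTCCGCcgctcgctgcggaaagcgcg
II:5543511-5543611: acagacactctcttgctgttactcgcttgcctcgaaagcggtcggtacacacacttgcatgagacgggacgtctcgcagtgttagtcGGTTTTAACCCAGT

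The strongest peak of the set covered V:14199938-14200491 (ce11, 1-based as throughout) and ranked 2 among all 1290. Its deposited signal value was 3262 for the pooled reads, 2191 for replicate 1 and 1084 for replicate 2, and it ranked 2 in each replicate as well. The summit was intergenic, 2518 bp past the end of atfs-1, the bZIP factor of the mitochondrial unfolded protein response, and 5296 bp before the start of T16A9.3. No other optimal peak lay within 6618 bp of it. The next peak, at V:19529111-19529522, lay in an intron of Y43F8B.2 and had a pooled value of 1294, with 918 in replicate 1 and 374 in replicate 2. The peak at III:10989387-10989754 had a pooled value of 1209, with 798 in replicate 1 and 408 in replicate 2. It lay in an intron of dhc-4, a gene annotated as a dynein heavy chain, with its summit 106 bp upstream of the snRNA gene W05B2.8 that the same intron holds. In each of these 3 peaks the value in replicate 1 was the higher.

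Below these, values fell quickly. The peak at I:11964749-11965115, 1816 bp upstream of hsf-1, the master regulator of chaperone genes under heat, had a pooled value of 982, with 681 in replicate 1 and 304 in replicate 2, and it held TTGCGAAA. The peak in an intron of ppfr-1 at I:9383027-9383234, beside an annotated antisense RNA, had 637 in the pooled list. The peak beside linc-128, a long intergenic non-coding RNA gene, at V:1151366-1151625 had 614 and lay 4793 bp upstream of cmd-1, which encodes calmodulin. The peak at IV:2219515-2219760 had 578 and lay between the starts of T04C4.3 and fnip-2, 2773 and 3199 bp away. The remaining 13 of the 20 strongest had between 345 and 543. All 20 were found among the strongest regions of both replicates, 13 were intergenic, 5 intronic and 2 exonic, 10 lay over 2000 bp from any coding start, 6 held TTGCGAAA and 3 lay beside a tRNA, snRNA or snoRNA gene.

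Over the whole set the signal values were lower than those of promoter peaks. The median was 115, with quartiles of 91.9 and 165 and a range of 80.1 to 3262, against a median of 144 in the 757 autosomal promoter peaks. The set held 4 of the 20 strongest and 11 of the 100 strongest optimal peaks, where promoter peaks held 12 and 66. Intergenic, intronic and exonic members had medians of 117, 114 and 97.5. Optimal peaks made up 1.77% of the 16490 autosomal candidate regions outside promoters, 10.2% of the 7409 inside promoters and 4.3% of all 30000 candidates in the pooled list. Because the set was chosen by these very values, they and the splits of members by strength given below are description without a test.

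In the replicates taken singly, 250 of the 292 members (85.6%, 95% Clopper-Pearson interval 81.1 to 89.4%) had a partner in replicate 1, that is, 1 of its 1290 strongest regions with its summit at most 100 bp off. The share over all optimal peaks was 88.3%. In replicate 2 the count was 206 (70.5%, 65.0 to 75.7%), beside 76.7% of all optimal peaks, and in both replicates together 173 (59.2%, 53.4 to 64.9%), beside 67.9%. Among autosomal promoter peaks 71.5% (68.1 to 74.7%) were found in both. Nearly all members had a partner somewhere in the full lists of 30000 regions, 286 in replicate 1 and 278 in replicate 2, while 9 were among the strongest regions of neither. Exonic members were the thinnest in this respect: 10 of 20 (50%, 27.2 to 72.8%) were found in both, 6 had no partner among the strongest of replicate 2, and 4 of these had none in its full list either. Over the 272 members with a value in each replicate, which share the control and the pooled selection, Spearman's rho was 0.66 and Pearson's r of log2 values 0.81. The value in replicate 1 was the higher in 263 of these, with a median ratio of 1.95. The plot of both replicates' values shows this offset over the whole range.

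**Figure D1:**
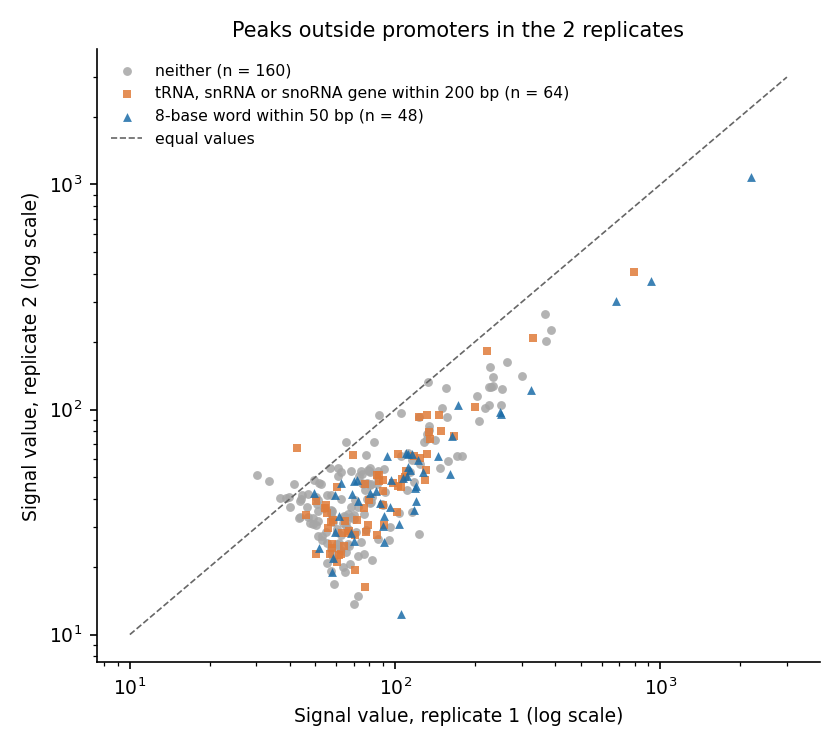
Signal value in replicate 1 (horizontal, log scale) against replicate 2 (vertical, log scale) for the 272 peaks outside promoters with a value in both; the 48 triangles mark peaks with TTGCGAAA, the 64 squares peaks within 200 bp of a tRNA, snRNA or snoRNA gene. Nearly all points lie below the dashed line of equal values, and the 4 highest values in replicate 1 (681 to 2191) belong to triangles and squares, above the highest of the 160 other peaks (387).

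By the place of the summit, 152 members (52.1%, 46.2 to 57.9%) were intergenic, 120 (41.1%, 35.4 to 47.0%) intronic and 20 (6.85%, 4.23 to 10.4%) exonic. Among equally many of the strongest regions of replicate 2 alone the exonic share was 13.3%. Candidate regions outside promoters that share no base with a peak were spread otherwise: of 16148, 29.0% were intergenic, 31.1% intronic and 39.9% exonic. Put the other way, optimal peaks were 3.13% of intergenic, 2.32% of intronic and 0.309% of exonic candidates. Of the intronic members, 49 of 120 (40.8%, 32.0 to 50.2%) lay in the first intron of a transcript, beside 31.4% of intronic candidates. Among the 151 intergenic members with a coding gene on each side, 40 (26.5%) lay between a pair of starts, 20 (13.2%) between a pair of gene ends and 91 (60.3%) between a start and an end, and candidates had 30.3%, 14.7% and 55.0%. Intergenic members lay upstream of the nearest start in 98 of 152 cases (64.5%), close to the 66.4% of intergenic candidates.

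The distance to the nearest coding start had a median of 1784.5 bp and ran from 7196 bp upstream to 11627 bp downstream. Between 1001 and 2000 bp upstream there were 68 members (23.3%), beside 13.5% of candidates without a peak. Between 201 and 2000 bp downstream there were 100 (34.2%), beside 44.4% of these candidates. Over 2000 bp from any start there were 124 members (42.5%, 36.7 to 48.4%), 63 upstream and 61 downstream, of which 79 were intergenic, 40 intronic and 5 exonic, and 21 lay over 5000 bp away. With the starts of all annotated transcripts counted, non-coding ones included, the share over 2000 bp was 16.8%. Of candidates without a peak 42.2% were that far, and optimal peaks were 1.78% of the candidates at this distance. Within each class members were less often that far than candidates, with 52.0% and 63.1% of intergenic, 33.3% and 37.1% of intronic and 25% and 30.9% of exonic summits, differences that were not tested. The plot of distances shows the members beside the promoter window, which the selection emptied. Intergenic ones were most numerous just beyond its upstream edge and intronic ones within 2000 bp downstream. The median signal value was 115 both beyond and within 2000 bp.

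**Figure D2:**
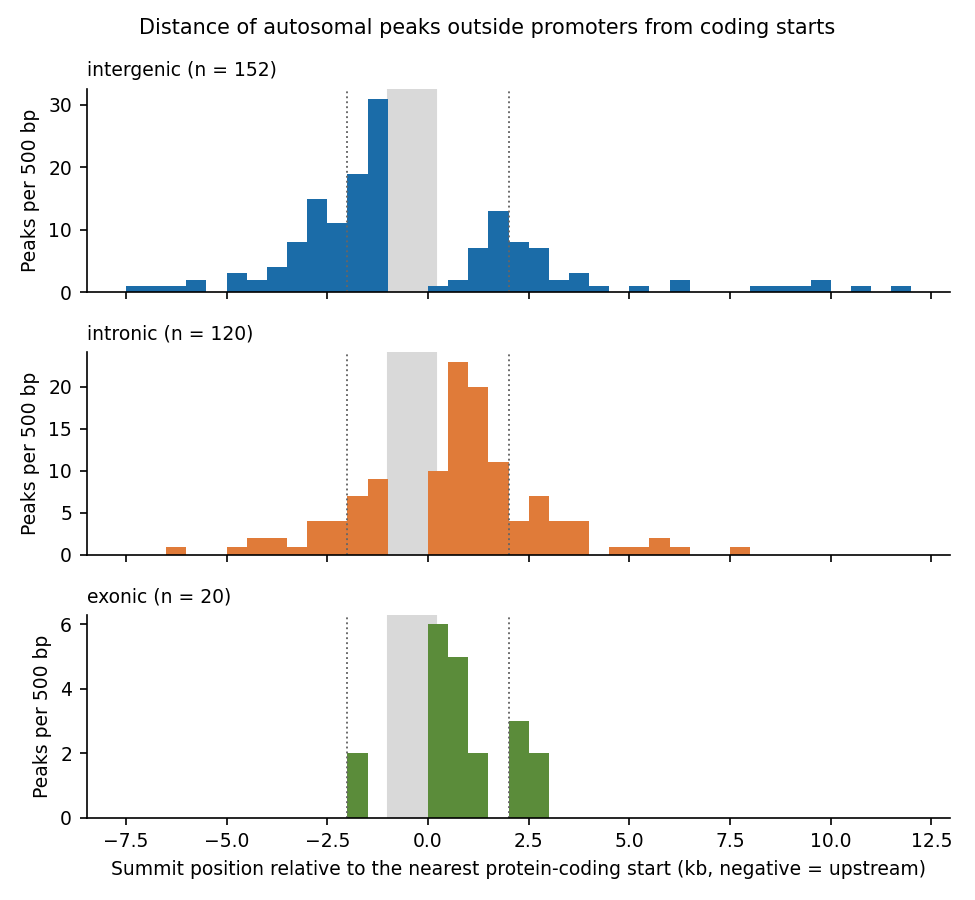
Number of peaks per 500 bp (vertical) by summit position relative to the nearest protein-coding start (horizontal, kb, negative upstream) for 152 intergenic, 120 intronic and 20 exonic peaks. The grey band is the promoter window that the selection left empty apart from the edges of bins, and dotted lines stand 2000 bp from the start; intergenic peaks pile up left of the band and intronic ones right of it.

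The farthest members lay in long stretches without a coding gene. The summit at IV:14033985-14034157 with a signal value of 213 lay inside mir-52, a microRNA gene of the mir-51 family, and 9717 bp from the nearest coding start, that of Y37A1B.7. A weaker summit, with 88.8, lay 224 bp away on the far side of mir-52. The farthest of all, at III:8865303-8865698 with 108, lay 134 bp upstream of the microRNA gene mir-80 and 11627 bp from K01F9.2. In all 6 members had a microRNA gene within 200 bp (2.05%, 0.758 to 4.42%), beside 0.264% of promoter peaks and 0.155% of candidates. The other microRNA genes were mir-58.1 in an intron of Y67D8A.2, mir-2214 in an intron of B0361.11 and mir-8209, with summits 33, 62 and 4 bp upstream.

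Exonic members were few and mostly weak. The strongest, at III:3456317-3456533 in an exon of C34C12.2, had a pooled value of 448, with 302 in replicate 1 and 141 in replicate 2. The next, at III:10202493-10202681 in T20G5.12, had 345 pooled, 249 in replicate 1 and 97.5 in replicate 2 and held TTGCGAAA 3.5 bp from its summit. The third, in C05D11.8, had 223, with a companion of 94.7 at 200 bp in the same gene, both upstream of atgl-1, which encodes an adipose triglyceride lipase. The other 16 had between 83.6 and 161. At 6 of the 20 a tRNA, snRNA or snoRNA gene lay within 200 bp.

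Sequence at the summits, which the selection did not use, was compared with that of promoter peaks. The words were chosen with earlier results of these data known, so their p-values are not those of words fixed in advance. TTGCGAAA lay within 50 bp of 52 of 292 summits (17.8%, 13.6 to 22.7%) and of 125 of 757 promoter summits (16.5%, 13.9 to 19.4%), an odds ratio of 1.10 (95% interval 0.751 to 1.58) with an adjusted p of 0.832 by Fisher's exact test, two-sided, with Benjamini-Hochberg adjustment over a family of 11 tests. No difference between the 2 classes was detectable, and the interval allows the odds to be up to 1.58 times those of promoters. With peaks beside tRNA, snRNA or snoRNA genes left out, 52 of 225 members (23.1%) and 123 of 709 promoter peaks (17.3%) held the word. The odds ratio was then 1.43 (0.972 to 2.09), with a p of 0.249 by Fisher's exact test, adjusted within that setting. Peaks are not biological replicates, so each such test describes these libraries only. Candidates outside promoters held the word in 151 of 16148 windows (0.935%), and candidates inside promoters in 1.57%. The GC content of the windows differed alongside, with a mean of 46.8% (SD 9.16, n = 292) in members, 45.5% (SD 8.54) in promoter peaks and 39.1% (SD 7.75) in candidates, and its part in these shares was not tested.

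The word sat close to the summit and in a particular context. Its centre lay a median of 11.5 bp from the summit, within 25 bp in 42 of 52 members (80.8%). Promoter peaks had a median of 13.5 bp and 72.0% within 25 bp, and candidates 23.5 bp and 52.3%. The search within 50 bp bounds these distances. In members the base before the word was A in 45 and the base after it T in 43, and both held in 38 of 52 (73.1%, 59.0 to 84.4%). Promoter peaks had both bases in 72 of 125 (57.6%, 48.4 to 66.4%) and candidates in 45 of 151 (29.8%, 22.6 to 37.8%), differences that were not tested. In 45 members the word occurred once and in 7 more than once. When the set was cut by falling signal value into 4 equal groups, the word was in 17, 20, 8 and 7 of 73. Members with the word had a median signal value of 139 beside 108 for those without, and neither difference was tested.

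The looser form TTRCNNAA was found at 76 members (26.0%, 21.1 to 31.5%) and 206 promoter peaks (27.2%), with an odds ratio of 0.94 (0.682 to 1.29) and an adjusted p of 0.832. Where TTGCGAAA itself was missing, TTRCNNAA occurred in 24 of 240 members (10%, 6.51 to 14.5%) and in 15.5% of candidates, a difference that was not tested. The palindrome TTGCGCAA was at 2 members, beside linc-128 and at III:2966505-2966900, and at 9 promoter peaks (odds ratio 0.573, adjusted p 0.832). TGACGT, the core read by CREB-type bZIP factors, was at 15 members (5.14%) and 39 promoter peaks (5.15%, odds ratio 0.997, adjusted p 1), and CACGTG, the E-box, at 11 (3.77%) and 25 (3.30%, odds ratio 1.15, adjusted p 0.832). The last difference passed the threshold in the strongest regions of replicate 2 alone, with an odds ratio of 2.35 and an adjusted p of 0.0157, and not in those of replicate 1, with 1.02.

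GAGAGAGA, a repeat of the kind found at many worm regulatory regions, differed. It was at 25 members (8.56%, 5.62 to 12.4%) and 30 promoter peaks (3.96%, 2.69 to 5.61%), with an odds ratio of 2.27 (1.25 to 4.07) and an adjusted p of 0.0178 by the same Fisher's exact test, and at 1.36% of candidates. It was least frequent among the strongest members, with 3, 7, 4 and 11 of 73 in the same 4 groups. The difference was lost when the 1290 strongest regions of replicate 1 alone were used, with an odds ratio of 1.68 and an adjusted p of 0.349, and under 3 other settings given in the closing section. Its strongest member was the peak between T04C4.3 and fnip-2.

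**Figure D3:**
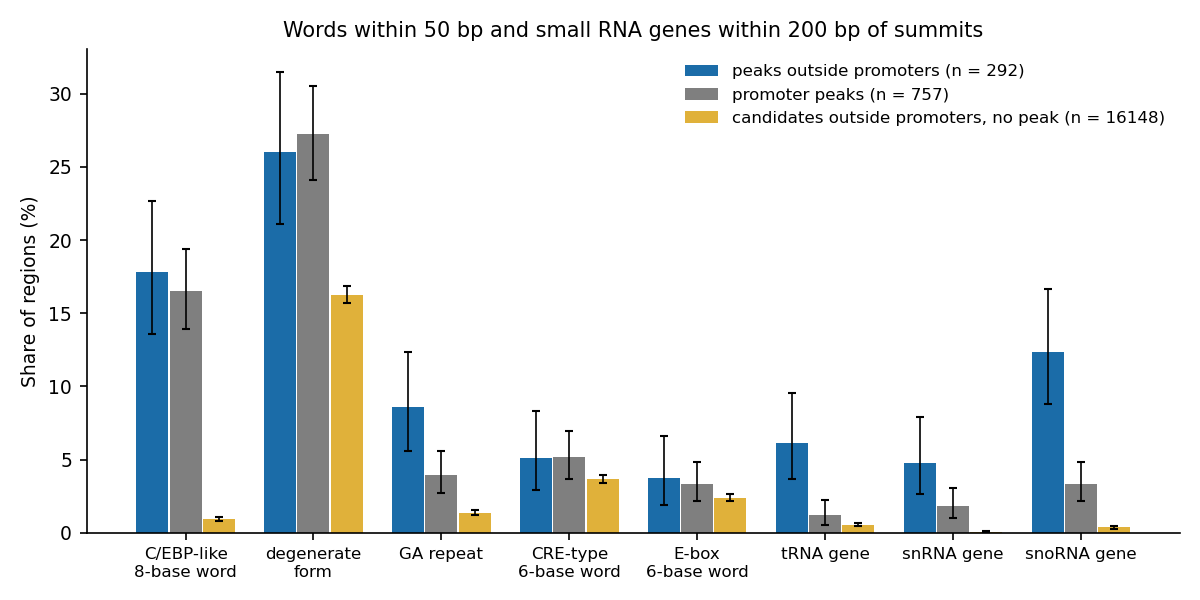
Share of regions (vertical, %) with each feature, for 292 peaks outside promoters, 757 autosomal promoter peaks and 16148 candidates outside promoters without a peak; bars are shares and lines 95% Clopper-Pearson intervals. From left, the features are TTGCGAAA, its looser form, the GA repeat, the CREB core and the E-box within 50 bp, and tRNA, snRNA and snoRNA genes within 200 bp; the blue and grey bars are alike for TTGCGAAA (17.8% and 16.5%) and apart for the small RNA genes.

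Genes for small structured RNAs had the largest odds ratio of the 7 features tested against promoter peaks. A tRNA, snRNA or snoRNA gene lay within 200 bp of 67 of the 292 summits (22.9%, 18.2 to 28.2%), of 48 of 757 promoter summits (6.34%, 4.71 to 8.32%), of 0.985% of candidates outside promoters and of 0.931% of candidates inside them. The odds ratio against promoter peaks was 4.39 (2.89 to 6.71) with an adjusted p of 4.387e-12 by Fisher's exact test. It stayed above 1 and past the threshold in all 13 alternatives tried, from 2.78 in replicate 2 alone to 5.73. Both classes were defined by position relative to coding starts, and most autosomal genes of these kinds start outside promoters. They were 244 of 336 tRNA, 89 of 126 snRNA and 203 of 313 snoRNA genes. Where the genes lie can therefore fix part of the difference, and how large a part was not tested. By kind there were 18 members beside a tRNA gene, 14 beside an snRNA gene and 36 beside a snoRNA gene, 1 of them beside 2 kinds. Of the 336 annotated autosomal tRNA genes, 19 (5.65%) lay within 200 bp of a member, as did 11 of 126 snRNA genes (8.73%) and 35 of 313 snoRNA genes (11.2%). Among only the genes that start outside promoters, the shares were 7.79%, 12.4% and 16.7%. Promoter peaks lay beside 10 tRNA, 10 snRNA and 24 snoRNA genes. Fewer genes of these kinds start inside promoters than outside, and shares per gene were not computed for promoter peaks. The odds ratio counts peaks, so it does not show that such a gene has a peak more often outside promoters.

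Most of the summits lay upstream of these genes. Of the 67, 52 (77.6%, 65.8 to 86.9%) were upstream of the gene's start, at a median of 41 bp, 6 were inside the gene and 9 downstream, and 38 fell between 15 and 60 bp upstream. Upstream summits were 13 of 18 for tRNA genes, 10 of 14 for snRNA genes and 30 of 36 for snoRNA genes, beside 55.1%, 45.5% and 52.5% in candidates near such genes. Promoter peaks had 5 of 9, 7 of 14 and 19 of 25 upstream, and these differences were not tested. Of the 67, 43 were intronic. There the small RNA gene lay on the strand of its host gene in 28 and on the opposite strand in 15.

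**Figure D4:**
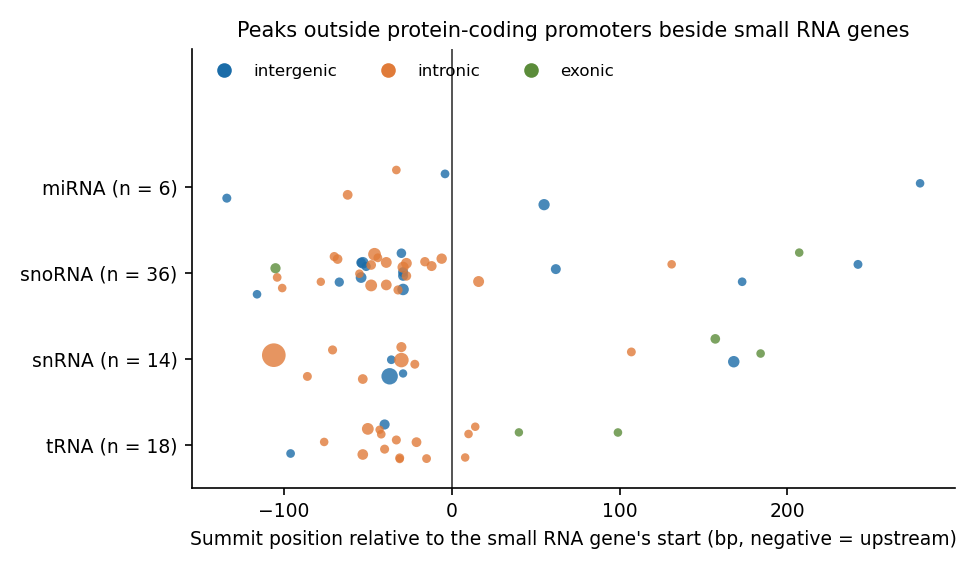
Summit position relative to the start of the small RNA gene (horizontal, bp, negative upstream) for peaks beside tRNA, snRNA, snoRNA and microRNA genes (rows, spread vertically at random for clarity); the area of a point grows with signal value and colour gives the position class. Points gather between 15 and 60 bp upstream, and the largest, 106 bp upstream, is the peak beside W05B2.8.

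Named examples show the same arrangement. The summit with 543 at II:5543433-5543700 lay 37 bp upstream of sls-2.2, and a partner with 224 lay 205 bp away past the other end of that gene. At II:12944915-12945109 the summit with 408 lay 30 bp upstream of sup-6, in an intron of F58G1.7. Among snoRNA genes the strongest summits were those beside ZK994.7 in an intron of pxn-1, with 295, beside F01D5.12 in an intron of F01D5.10, with 244, and beside F25H2.15, with 231, lying 46, 48 and 53 bp upstream. Among tRNA genes they were those beside F47G6.t1 in an intron of spe-15, with 241, beside W09D6.t1 in an intron of rsa-2, with 183, and beside Y39B6A.t9, with 157, lying 50, 53 and 40 bp upstream. The tRNA gene sup-5, known for its amber suppressor alleles, had a summit with 109 lying 40 bp upstream, in an intron of fli-1. Many tRNA and snRNA genes have near-identical copies, and the treatment of reads with several matches in the genome is not given in the sources used here. As exact strings, a count that leaves out near-identical copies and shorter reads, 291 of the 292 windows of 101 bp occur once in the assembly. The exception was the window beside the snRNA gene C28A5.7, which occurs at 2 places.

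Peaks beside small RNA genes and peaks with TTGCGAAA were separate members. None of the 67 peaks beside such genes held the word, which allows a share of up to 4.48% (3 counts of 67, the limit used for every count of 0), while 52 of the other 225 did (23.1%, 17.8 to 29.2%); of the 48 promoter peaks beside small RNA genes 2 held it. TTRCNNAA was in 5 of the 67 (7.46%, 2.47 to 16.6%). It was in 8 of the 48 such promoter peaks (16.7%) and in 28 of 159 candidates beside such genes (17.6%), differences that were not tested. The peaks beside small RNA genes were spread evenly over strength, with 17, 18, 16 and 16 of 73 in those 4 groups, and had a median signal value of 119. Neither TTRCNNAA, GAGAGAGA nor a small RNA gene was found at 135 members (46.2%, 40.4 to 52.1%).

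Intronic and intergenic members differed in this. A small RNA gene was beside 43 of 120 intronic summits (35.8%, 27.3 to 45.1%) and 18 of 152 intergenic ones (11.8%, 7.17 to 18.1%), an odds ratio of 0.242 (0.122 to 0.463) for intergenic against intronic with an adjusted p of 2.107e-05 by Fisher's exact test. Among candidates without a peak the shares were 1.53% and 1.26%. In the stronger members alone, from the 645 strongest optimal peaks, the odds ratio was 0.43 with an adjusted p of 0.426. TTGCGAAA was at 32 intergenic (21.1%) and 18 intronic members (15.0%), a difference within counting error (odds ratio 1.51, 0.769 to 3.04, adjusted p 0.582). Members over 2000 bp from any coding start did not differ detectably from nearer ones in either feature: TTGCGAAA was at 19 of 124 (15.3%) and 33 of 168 (19.6%), with an odds ratio of 0.741 (0.375 to 1.43) and an adjusted p of 0.788, and small RNA genes were at 26 (21.0%) and 41 (24.4%), with an odds ratio of 0.822 (0.450 to 1.48) and an adjusted p of 0.832.

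Genes of the type annotated as ncRNA, a mixed class, lay within 200 bp of 63 members (21.6%), 13.2% of promoter peaks and 4.54% of candidates. These members overlapped with those beside tRNA, snRNA or snoRNA genes, as 31 of those 67 and 32 of the other 225 (14.2%) had an ncRNA gene. So did 24 of the 48 promoter peaks and 44.7% of the candidates beside such small RNA genes. Pseudogenes lay by 12 members (4.11%), 0.264% of promoter peaks and 4.48% of candidates. Antisense RNA genes lay by 5 members (1.71%), 0.132% of promoter peaks and 0.149% of candidates, and lincRNA genes by 4 (1.37%), 0.528% and 0.390%. Genes for piRNAs lay by 1 member (0.342%), 0.925% of promoter peaks and 3.33% of candidates. No member had an rRNA gene, where a count of 0 allows up to 1.03% by the same limit of 3 counts, and none of the candidates had one. These classes were not tested.

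The nearest coding genes numbered 252, of which 30 were nearest to more than 1 member. The 2 genes with 4 members each, picked out after these counts were seen, were pqn-41, where all 4 were intronic with 159.5 to 309, and vhp-1, a phosphatase gene of the MAP kinase pathways, where 2 were intronic and 2 upstream with 94.8 to 117. Of a list of 46 stress and bZIP regulators, chosen with earlier results of these data known, 44 had a match in the annotation, and 8 members (2.74%, 1.19 to 5.33%) had a listed gene as nearest start or host, beside 130 of 16148 candidates (0.805%). Besides the peaks of atfs-1 and hsf-1 described above, the peak at V:20778236-20778631, 1973 bp upstream of hif-1, the hypoxia-inducible factor, had a pooled value of 370.1, with 254 in replicate 1 and 123 in replicate 2. The other 5 had between 83.6 and 123 and lay 3133 bp upstream of fos-1, 1609 bp downstream of the start of xbp-1, 2283 bp downstream of that of zip-11, in an intron of cct-5 4475 bp upstream of atf-7, and in an exon of zip-2. The xbp-1 member had no partner in the full list of replicate 1 and 69.5 in replicate 2. TTGCGAAA was at the atfs-1 and hsf-1 peaks and at none of the other 6.

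Several members came in pairs. Of the 292, 25 lay within 500 bp of another optimal peak and 35 within 1000 bp, and 4 lay within 1000 bp of an autosomal promoter peak. Pairs stood on either side of the snRNA genes sls-2.2, R07E5.16 in mpc-1 and F32B5.9 in cpz-1, with summits 205, 210 and 214 bp apart. Other pairs stood on either side of the snoRNA genes C18A3.12 and T06D8.11. The tests and intervals count each peak of a pair separately, although such peaks may not be independent. By chromosome there were 53 members on I, 61 on II, 74 on III, 51 on IV and 53 on V. Chromosome III held 25.3% of members, 21.7% of promoter peaks and 17.5% of candidates without a peak, and chromosome V, the longest, 18.2%, 21.1% and 26.3%.

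At the edges of the selection, members were placed by the start nearest to the summit. Promoter peaks were placed by the nearest start whose window held the summit. On this footing the member closest to the upstream limit lay 1009 bp upstream of mrpl-23, with a signal value of 114. The next lay 1025 bp upstream of acbp-6, with 81.6. The promoter peaks closest to that limit lay 998 bp upstream of C01B10.3, with 288, and 996 bp upstream of ZC21.10, with 1392. On the downstream side members lay 205 bp into T28F4.1, with 240, and 219 bp into egl-30, with 107, and promoter peaks 191 bp into sec-61.A and figl-1, the former with 171. The weakest members, in introns of kin-1 and max-2, had 80.1 and 80.1, and the strongest candidates below the optimal set, near sca-1 and ifbp-1, had 79.9 and 79.8. One member, at I:3267565-3267960 with 103, lay 1001 bp upstream of zip-4 itself, 1 bp outside the window, in an intron of nol-58, whose start was nearer at 669 bp. Sequence upstream of zip-4 may also be carried by the transgene, whose extent is not given in the sources used here. Another 2 members, at coa-7 and F28F8.7, lay in the windows of non-coding transcripts of protein-coding genes, 54 bp upstream and 194 bp downstream of their starts.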

How the data were processed

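Per the labels and the accompanying description, the authors deposited narrowPeak files (ce11): 30000 candidate regions for each replicate and for the pooled reads, and an optimal set of 1290 kept by the irreproducible discovery rate (IDR) method. The authors' signal value per region, of unstated scale, ranked regions within a list, and in the pooled list no region outside the optimal 1290 had a higher one than any inside. The deposited −log10 q-value was at least 1.60 in members and served only as a check. Summits were placed by the offset column, and 1, that of the sup-26 member, lay 1 bp outside its interval. The aligner, the peak caller, the IDR threshold and the depth were left unnamed (not given in the sources used here). Depth is therefore unknown, and intervals cover counting over peaks only.

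Starts, exons and biotypes came from Ensembl release 115 (WBcel235), small RNA gene symbols from RefSeq by coordinates (1348 of 1348 matched), and sequence from the RefSeq genome, whose chromosome lengths held all regions. Only transcripts annotated as protein-coding defined promoters. Candidates without a peak share no base with an optimal peak. Words were sought on either strand, at most 50 bp from a summit. Shares have Clopper-Pearson 95% intervals, and a count of 0 has a limit of 3 counts of the total. Fisher's exact tests, two-sided, formed 1 family of 11 at 0.05. Scripts used python 3.11.15, pandas 2.3.3 and scipy 1.17.1 and were tested on simulated data. Members, words and lists were chosen with earlier results of these data known. Members were named by a rule: the 20 strongest, the highest of each class and distance, the 3 highest beside each kind of small RNA gene, those at listed regulators, and those at the limits. Others, such as those at sup-5, C28A5.7, R07E5.16, F32B5.9, C18A3.12, T06D8.11, coa-7 and the remaining microRNA genes, were named after their values were seen. Of the listed symbols, atf-9 and hsf-2 had no match. Alternatives were other promoter windows, starts, positions, distances, word windows, the stronger part of the set and each replicate alone.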

Additional observations from a re-analysis of the deposited data

How the results depend on the processing

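Of 213 alternative values, 180 kept their direction and their side of the threshold (for shares, stayed within the interval), and for the others the cause was not tested except where the construction shows it. With a window of 500 bp upstream to 100 bp downstream, 35.2% of members were intronic and 29.9% lay over 2000 bp from a start, and the odds ratios for CACGTG and for small RNA genes at distant members were 0.86 and 1.00. With 2000 bp upstream, 61.7% lay over 2000 bp away, which the wider window itself brings about, and the odds ratios were 0.96 for TTGCGAAA, 1.63 for GAGAGAGA (adjusted p 0.426) and 1.22 for TGACGT. With starts of genes only, 42.1% were intergenic, 49.6% intronic and 52.1% over 2000 bp away. The 645 strongest peaks held 109 members, with odds ratios of 1.87 for GAGAGAGA (adjusted p 0.553) and 1.43 for TGACGT, and, for small RNA genes, 0.43 in intergenic against intronic and 1.12 in distant against nearer members. With the start of any transcript for the 2000 bp limit, 16.8% were distant, the odds ratio for TTGCGAAA at them was 1.42, and that for small RNA genes was 0, since those genes then count as starts. With words within 25 bp the odds ratios were 1.22 for TTRCNNAA and 1.88 for GAGAGAGA (adjusted p 0.440). Without peaks beside small RNA genes they were 1.19 for TTRCNNAA and 1.17 for TGACGT. The last word had 1.17 with RefSeq starts and 1.00 without the 1-base shift of the summit, both chosen after seeing the data. With summits within 50 bp, 51.0% of members were in both replicates.

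Leaving out replicate 1 or replicate 2 gave 34.2 and 39.5% intronic and 13.3 and 7.77% exonic members, and odds ratios of 0.789 and 1.01 for TTGCGAAA, 0.793 and 1.02 for TTRCNNAA, 2.73 and 1.68 for GAGAGAGA, 2.35 and 1.02 for CACGTG, and 0.903 and 1.18 for TTGCGAAA in intergenic against intronic members. The number of members ran from 109 to 415 over all alternatives. No paired analysis was possible because there was 1 group. With 2 replicates, unknown depth and no untagged control, a small difference between peak classes was not detectable, and the tests describe these libraries.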

Other observations

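Among the 154 members with neither TTRCNNAA nor a small RNA gene, the word AGACGCAG was noted on reading the windows and was then counted, so its share describes these data and was not tested. It lay within 50 bp of 23 of them (14.9%, 9.71 to 21.6%), of 54 of 511 such promoter peaks (10.6%, 8.04 to 13.6%) and of 1.11% of such candidates. Over the whole sets it was at 24 of 292 members (8.22%), 68 of 757 promoter peaks (8.98%) and 0.997% of candidates. The window of the peak between T04C4.3 and fnip-2 holds 3 copies, in capitals on either strand.
IV:2219579-2219679: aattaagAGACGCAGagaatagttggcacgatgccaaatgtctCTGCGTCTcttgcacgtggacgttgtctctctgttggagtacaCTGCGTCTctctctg
The word was in 1 of 76 members with TTRCNNAA and in none of the 67 beside small RNA genes, where a count of 0 allows up to 4.48%.

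GCGGAACC, noted in the same way, was in 9 of the 67 members beside small RNA genes (13.4%, 6.33 to 24.0%) and in none of the other 225, which allows up to 1.33%. By kind it was in 5 of 14 members beside snRNA genes, 4 of 36 beside snoRNA genes and none of 18 beside tRNA genes. Promoter peaks beside small RNA genes held it in 5 of 48, and candidates beside such genes in 0 of 159, which allows up to 1.89%. At the 5 snRNA genes (W05B2.8, sup-6, F32B5.9, sls-2.14 and T08G5.11) the word stood on the gene's own strand and ended 64, 53, 53, 56 and 53 bp before the gene's start.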
